A study of Sus scrofa with 8 samples.

Results

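The collagen genes of the embryonic pig somite and myotome are described here across stages, breeds and cell types. They were chosen by name, as every gene symbol in the deposited matrices made of COL, a number, A and a number, and 39 of the 21301 genes met this rule. By the structure of the encoded chain they comprised 10 fibrillar, 8 fibril-associated, 5 basement membrane, 5 beaded filament, 4 transmembrane, 3 short-chain and 2 multiplexin collagen genes and 2 others. COL4A1, COL6A4, COL7A1, COL9A2, COL20A1 and COL24A1 were not among the symbols and were not analysed here, except that COL4A1 was found by its gene identifier and its main values are given apart from the counts of members.

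Single-cell RNA sequencing was performed on 8 libraries, with 1 library for each of 4 stages and 2 breeds. Somites were taken on embryonic days 16, 18 and 21 (E16, E18, E21) and myotomes on day 28 (E28). The breeds were the Tibetan pig (ZZ) and its cross with Duroc (DZ), which shared the breed of the dam and differed in that of the sire, and every library was 1 pool of 5 embryos carried by 1 sow. All tissues were dissociated with collagenase I, an enzyme that cuts fibrillar collagen protein, so the data speak of collagen RNA only. No library had a replicate of its own stage and breed. Stages were therefore compared over both breeds, with E16 and E18 called early and E21 and E28 called late (4 libraries each). The myotome was sampled only at E28, so at that stage tissue and time cannot be told apart.

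Collagens are the main structural proteins of the extracellular matrix, and every chain carries repeats that allow 3 chains to wind into a helix. Fibrillar collagens form the ropes of bone, tendon, skin and cartilage, fibril-associated collagens coat and space these ropes, type IV collagen builds the sheets on which epithelia, vessels and muscle fibres rest, and type VI collagen forms beaded filaments around cells. In the somite the ventral sclerotome gives rise to the vertebrae and ribs, the myotome to skeletal muscle and the syndetome between them to tendon, and each of these tissues is known for its own set of collagens.

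After filtering, 74147 cells and 382966737 UMIs (distinct RNA molecules) were kept, with 39852689 to 57568266 UMIs per library and a median of 3405 to 6160.5 UMIs per cell. E16-ZZ lost 39.2% of its barcodes to the limit on mitochondrial RNA, against 1.05% to 9.15% in the other libraries. Among the kept cells, 1361 (1.84%) carried a barcode sequence that also occurred in another library. Levels are given as CPM, the UMIs of a gene per 1000000 UMIs of a library or of the cells of one type. Values listed for several libraries stand in the order of the stages, with ZZ before DZ at each stage.

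Collagen RNA made up a small and uneven part of the transcriptome. The 39 genes had 1323778 UMIs in all, of which COL3A1, COL1A2 and COL1A1 took 60.3%, and COL2A1 and COL18A1 brought the share to 72.9%. Collagens accounted for 0.255% ± 0.066 of the UMIs in early libraries and 0.462% ± 0.194 in late libraries (mean ± SD, n = 4 each). This difference did not pass an exact two-sided permutation test (p = 0.143, where the smallest p that 4 against 4 libraries allow is 0.0286). With the share averaged over cells in place of summed UMIs, p was 0.0571, and with cells above 5% mitochondrial UMIs removed it was 0.314.

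**Figure D1:**
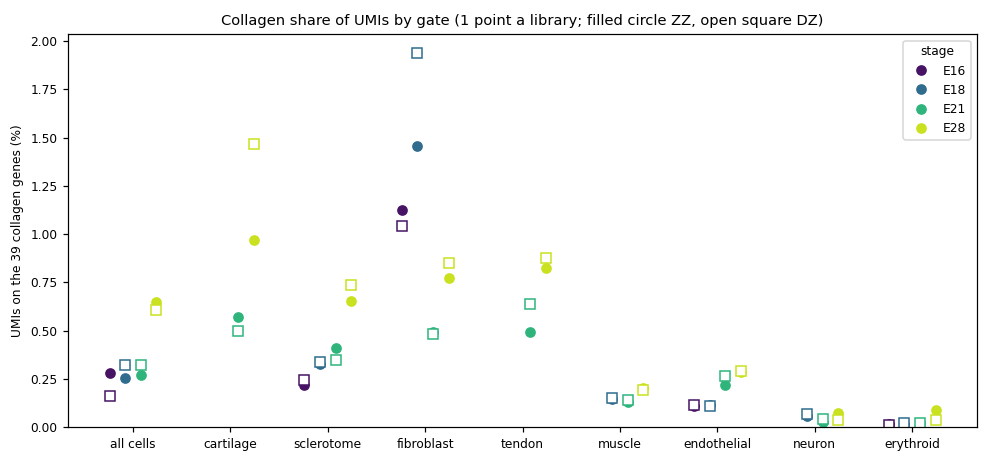
Share of UMIs on the 39 collagen genes, in percent, for all cells and for each gated cell type (1 point per library, filled circles ZZ, open squares DZ, colours the stages). Fibroblast-gated cells have a median share of 0.946% over 8 libraries, but in the 4 late libraries, the only ones with cartilage and tendon gates, they lie at 0.483% to 0.852%, below cartilage in each.

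Cells were assigned to types by gates of marker genes that include no collagen, so that collagen levels could be compared between types. A cell entered a gate when it carried at least 2 or 3 markers of that type at a minimum level. Cells that met 2 or more gates other than the fibroblast gate were left out. A cell that met the fibroblast gate and another gate was kept in that other gate, so the fibroblast gate held only cells that met no other. The gates held 1620 cartilage, 2100 sclerotome, 9064 fibroblast, 2196 tendon, 3459 muscle and 2078 endothelial cells, together with 2475 neurons and 823 erythroid cells, the last 2 of which are given for reference because they are not known as makers of type I collagen. Cartilage and tendon gates reached 20 cells only in the 4 late libraries, and the muscle gate in the 6 libraries from E18 on. Some defining markers were scarce. SCX, a tendon transcription factor, was at 0.701 to 4.54 CPM in the tendon gate, where TNMD (tenomodulin) was at 113 to 283, and MATN1, a cartilage matrix gene, had 0 and 4 UMIs in the cartilage gates of E21. The median collagen share was 0.946% in the fibroblast, 0.771% in the cartilage, 0.731% in the tendon, 0.344% in the sclerotome, 0.166% in the endothelial and 0.147% in the muscle gate, against 0.051% in neurons and 0.0193% in erythroid cells. The cartilage and tendon medians cover late libraries only, where the share was 0.496% to 1.47% in cartilage, 0.492% to 0.874% in tendon and 0.483% to 0.852% in fibroblast-gated cells.

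The first comparison asked which collagen genes differ between the late and early libraries as a whole. In edgeR's quasi-likelihood test, with p-values adjusted over all 14682 genes tested, 20 of the 35 collagen genes tested rose and 3 fell, while 34.4% of all genes passed the test (16.7% higher, 17.7% lower). The median log2 difference was 1.54 for the collagen genes and 0.02 for all genes. All 8 fibril-associated and all 3 tested beaded filament genes rose, as did 5 of 10 fibrillar genes, whereas 2 of 4 tested basement membrane genes and COL18A1 fell. With fewer samples, 14 collagen genes passed without the E28 libraries and 4 without the E16 libraries. Leaving out both E18 or both E21 libraries was not tried. In whole libraries, fewer cells of a type and less RNA per cell cannot be told apart, and the fibroblast gate held 116 to 896 cells in each library up to E21 but 3676 in E28-ZZ and 2690 in E28-DZ.

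**Figure D2:**
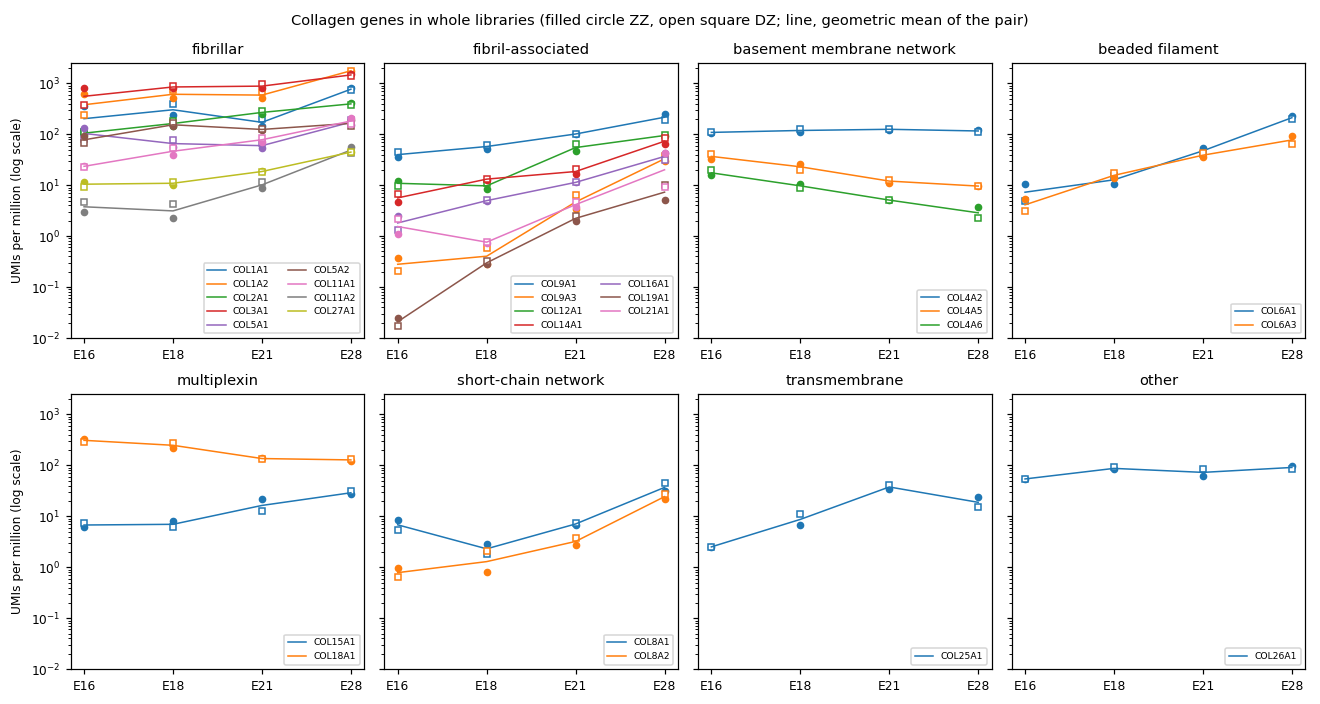
Level of collagen genes (CPM, log axis) by stage in whole libraries, 1 panel per structural group, with filled circles for ZZ, open squares for DZ and lines through the geometric mean of both. COL9A3, COL19A1 and COL6A1 climb with the stage, COL18A1, COL4A5 and COL4A6 decline, and COL4A2 stays between 106 and 128.

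Among the fibrillar collagens, the chains of the general connective tissue fibril and of the cartilage fibril behaved differently. COL1A1 and COL1A2 encode the chains of type I collagen, the main protein of bone, tendon and skin. COL1A1 was at 366, 112, 235, 390, 148, 199, 793 and 741 CPM. COL1A2 was at 613, 235, 512, 726, 506, 682, 1774 and 1757. Both were highest in the 2 E28 libraries and lowest in E16-DZ, but the early values overlapped those of E21. The difference between late and early libraries did not pass the test for either gene (COL1A1 log2 difference 0.60 ± 0.62 SE, adjusted p = 0.473, and COL1A2 1.01 ± 0.49, adjusted p = 0.142). COL3A1, the chain of the fine fibrils of soft tissue, followed at 823, 376, 812, 887, 812, 957, 1508 and 1417 (0.54 ± 0.30, adjusted p = 0.191).

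COL2A1, the chain of the cartilage fibril, was at 101, 110, 144, 183, 249, 290, 417 and 375 CPM. Its values did not overlap between early and late libraries and it rose by 1.14 ± 0.22 on the log2 scale (adjusted p = 0.00758). COL11A1 and COL11A2, minor chains of the same fibril, rose by 1.74 and 2.90 (adjusted p = 0.0148 and 0.0131). COL11A2 moved from 2.31 to 4.76 CPM in early libraries to 8.94 and 11.5 at E21 and 56.0 and 42.9 at E28. COL27A1, a fibrillar chain of cartilage, went from 9.29 to 11.8 in early to 17.9 to 44.9 in late libraries (1.37, adjusted p = 0.0184), a call lost without E16-DZ, E28-ZZ or E28-DZ. COL5A3, a minor type V chain, rose by 1.77 (adjusted p = 0.0135), while COL5A1 and COL5A2, the main type V chains, which set the diameter of type I fibrils, gave no call. COL5A1 ranged from 53.6 in E21-ZZ to 193 in E28-DZ, and COL5A2 from 66.6 in E16-DZ to 188 in E28-ZZ.

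The promoters of COL1A1, COL1A2 and COL2A1 are shown because the first 2 genes encode chains of one protein yet differed between muscle cells and other types, as described below, and the third leads the cartilage set. Each run covers 250 bases before to 50 bases after the annotated start, read 5′ to 3′ on the gene's strand from the Sscrofa11.1 genome with RefSeq gene positions, and the capitals mark the motif CCAAT (or its reverse complement, ATTGG) and the motif TATAAA (or its reverse complement, TTTATA). COL1A1 lies at chr12:26397131-26397430 on the minus strand, COL1A2 at chr9:74174234-74174533 on the plus strand and COL2A1 at chr5:78380844-78381143 on the minus strand.
COL1A1: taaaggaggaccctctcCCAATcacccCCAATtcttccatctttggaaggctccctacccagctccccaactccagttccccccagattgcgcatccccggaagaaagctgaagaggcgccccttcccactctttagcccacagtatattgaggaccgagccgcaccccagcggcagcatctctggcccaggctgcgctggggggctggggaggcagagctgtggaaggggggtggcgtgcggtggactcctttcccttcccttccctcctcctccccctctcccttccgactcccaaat
COL1A2: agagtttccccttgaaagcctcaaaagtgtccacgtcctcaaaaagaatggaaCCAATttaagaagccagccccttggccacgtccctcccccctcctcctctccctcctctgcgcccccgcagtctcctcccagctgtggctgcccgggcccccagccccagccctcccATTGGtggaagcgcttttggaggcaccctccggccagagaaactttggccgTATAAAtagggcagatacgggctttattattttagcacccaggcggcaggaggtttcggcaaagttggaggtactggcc
COL2A1: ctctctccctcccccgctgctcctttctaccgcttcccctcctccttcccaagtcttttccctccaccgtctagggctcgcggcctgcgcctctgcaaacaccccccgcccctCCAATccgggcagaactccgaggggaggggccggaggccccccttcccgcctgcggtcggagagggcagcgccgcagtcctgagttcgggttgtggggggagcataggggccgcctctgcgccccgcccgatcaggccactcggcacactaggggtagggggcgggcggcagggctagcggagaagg
The COL1A2 window held TATAAA 29 bases before the start and CCAAT on both strands, the COL1A1 window held CCAAT at 2 places but not TATAAA, and the COL2A1 window held 1 CCAAT. Of the 38 members whose symbol matched the RefSeq annotation, 15 (39.5%) had CCAAT and 8 (21.1%) TATAAA in this window on either strand, against 35.7% and 11.6% of 20637 promoters of the same length. A match is only a run of letters, and binding was not measured. Where transcripts begin was not tested, and motifs near a start other than the annotated one would be missed. The lack of TATAAA in a window therefore does not show that a promoter lacks it.

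The basement membrane chains fell or stayed level. COL4A2, one of the chains of type IV collagen found in all basement membranes, was at 106 to 128 CPM in all 8 libraries (log2 difference −0.10 ± 0.11, adjusted p = 0.486). COL4A1, matched by its gene identifier, fell by 0.53 (adjusted p = 0.00799). COL4A5 and COL4A6 encode chains of the basement membranes of smooth muscle, skin and the early embryo, and lie next to each other on opposite strands of chromosome X (88958837 to 89183306 and 88634925 to 88750938).

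COL4A5 was at 32.7, 41.4, 26.3, 20.2, 11.2, 12.9, 9.76 and 9.46 CPM, and COL4A6 at 15.7, 19.5, 10.6, 8.90, 5.08, 5.12, 3.70 and 2.23. Both were highest at E16 and lower in every late than in every early library, with falls of 1.68 ± 0.28 and 1.97 ± 0.40 on the log2 scale (adjusted p = 0.00491 and 0.00878). The ratio of COL4A5 to COL4A6 stayed between 2.08 and 4.245. COL4A3 and COL4A4, the chains of the kidney glomerulus and lung, were rare, with 56 UMIs in all for COL4A3 and at most 1.02 CPM for COL4A4.

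The type VI chains rose together. COL6A1 was at 10.7, 4.96, 10.8, 15.1, 55.0, 40.8, 228 and 196 CPM and rose by 3.47 ± 0.64 on the log2 scale (adjusted p = 0.00682). COL6A3, the long chain of the filament, was at 5.47, 3.095, 13.8, 17.7, 35.02, 43.1, 92.9 and 64.5 (2.42 ± 0.56, adjusted p = 0.014). For both genes every late library lay above every early one, and the E28 libraries lay above those of E21. COL6A2 also rose (2.23, adjusted p = 0.00673) but had only 507 UMIs in all, at 15.8 to 77.8 UMIs of COL6A1 per UMI of COL6A2, although the 3 chains form 1 molecule. The annotation used here gives no chromosome for COL6A2, and how its 3′ end is annotated was not tested. COL6A5 had 12 UMIs in all, and COL6A6 reached at most 1.58 CPM.

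The fibril-associated collagens also rose as a group. COL9A1 and COL9A3, chains of the type IX collagen that coats cartilage fibrils, rose by 1.54 and 5.54 on the log2 scale (adjusted p = 0.0108 and 0.00438). COL9A3 was at 0.376, 0.209, 0.278, 0.587, 3.36, 6.53, 29.3 and 37.1 CPM, so that it was near the limit of detection before E21. COL12A1 and COL14A1, which coat type I fibrils in tendon, skin and muscle sheaths, reached 93.0 and 96.4, and 63.6 and 83.8, at E28. COL12A1 was at 8.43 to 12.4 in early and 47.2 to 96.4 in late libraries (2.66 ± 0.28, adjusted p = 0.00182).

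COL14A1 rose by 2.12 (adjusted p = 0.0251), a call lost without any 1 of the E16 or E28 libraries, and COL16A1 by 2.66 (adjusted p = 0.0115). COL19A1, known from muscle cells of the embryo, was at 0.0251, 0.0174, 0.278, 0.322, 1.997, 2.50, 5.23 and 10.2 CPM (4.71 ± 0.92, adjusted p = 0.00802). It was ordered by stage, with no overlap between any neighbouring stages. Its early values were near the limit of detection, with 35 UMIs over the 4 early libraries. COL21A1, a collagen of blood vessel walls and muscle, was at 0.747 to 2.16 in early libraries, 3.77 and 4.60 at E21, 43.4 in E28-ZZ and 9.29 in E28-DZ (3.24 ± 0.93, adjusted p = 0.0308), and the value of E28-ZZ stood far above the other 3 late libraries. This call was lost without E16-ZZ, E18-ZZ, E18-DZ or E28-DZ. COL22A1, a collagen of the junction between muscle and tendon, rose by 2.23 (adjusted p = 0.00627) on 515 UMIs.

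Of the remaining groups, the multiplexins moved in opposite directions. COL18A1, the basement membrane collagen from which endostatin is cleaved, was at 335, 287, 222, 276, 141, 132, 122.7 and 133.5 CPM and fell by 1.29 ± 0.17 (adjusted p = 0.00262), with no late value above 141. COL15A1, a collagen of vessel and muscle basement membranes, was at 6.05 to 7.96 in early and 12.5 to 30.9 in late libraries (1.53 ± 0.27, adjusted p = 0.00591). Among the short-chain collagens, COL8A2 rose from 0.643 to 2.08 in early to 2.77 to 27.7 in late libraries (3.48, adjusted p = 0.0159), a call lost without E16-DZ, E28-ZZ or E28-DZ, and COL8A1 reached 30.7 and 44.5 at E28 without passing the test (2.04, adjusted p = 0.076). COL10A1, the collagen of hypertrophic cartilage, had 2 UMIs in the whole series.

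COL25A1, a transmembrane collagen of developing muscle needed for its innervation, peaked at E21. It was at 2.48, 2.54, 6.74, 11.2, 34.2, 41.6, 23.7 and 15.0 CPM and rose from early to late by 2.21 ± 0.53 (adjusted p = 0.0165), a call lost without E21-DZ. COL13A1, COL17A1 and COL23A1, the other membrane collagens, and COL26A1, an emilin-related secreted protein, gave no call. COL26A1 stayed between 54.0 and 97.4. COL28A1, known from peripheral nerve, rose by 3.34 (adjusted p = 0.0168) on 164 UMIs, a call lost without E16-DZ or E28-DZ.

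Adjacent stages were then compared to place these changes in time. The 3 comparisons share libraries and are not independent of each other. From E16 to E18, 4 collagen genes rose (COL6A3, COL14A1, COL19A1 and COL25A1) and COL8A1 fell, of 37 tested, while 4.71% of all genes passed (2.04% higher, 2.67% lower). From E18 to E21, 16 rose and 3 fell (COL4A5, COL4A6 and COL18A1), with 21.2% of all genes passing (10.7% higher, 10.4% lower), and COL9A3 gave the largest rise (3.43 ± 0.42, adjusted p = 0.00452). From E21 to E28, 14 rose and 0 fell, with 8.53% of all genes passing (4.31% higher, 4.23% lower), and these included COL5A1, COL8A1, COL8A2, COL11A1 and COL14A1. COL1A1 (2.10, adjusted p = 0.0614) and COL1A2 (1.53, adjusted p = 0.0815) did not pass between E21 and E28 although neither gene's libraries overlapped between these stages. With 2 libraries a stage these counts moved widely when a library was left out, to 0 to 7, 4 to 20 and 1 to 15 calls. The single call from E21 to E28 was obtained without E21-ZZ. With cells above 5% mitochondrial UMIs removed, fewer collagen genes were called from E16 to E18 and from E18 to E21. DESeq2 called more from E16 to E18.

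The breeds were compared with the stage as a block. No collagen gene passed the test between DZ and ZZ (0 of 37, and 0% of 15119 genes). The unadjusted p was under 0.05 for 914 genes, where chance alone would give a share of 0.05 of the 15119. DESeq2 called 57 genes and 0 collagens. The nearest to a call among the collagens in edgeR were COL4A3 (log2 difference 2.38, DZ over ZZ, adjusted p = 0.711), COL4A4 (1.68, adjusted p = 0.792) and COL14A1 (0.32, adjusted p = 0.792). COL14A1 was higher in DZ at all 4 stages. The difference between the breeds in the late-to-early change gave 0 collagen genes of 37 and 0% of all genes, with 124 genes at an unadjusted p under 0.05. This fit had no stage term, so its spread included differences between the stages of a period. The 124 genes were fewer than the share of 0.05 of 15119 genes that chance alone would give. The absence of calls here therefore says little.

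The gated types were compared next, each against the mean of the other 5, with the library as a block and without the marker genes in the tested table. Each comparison tested 31 collagen genes. A gene above the mean of the other types need not be highest in that type. COL6A3, COL16A1 and COL26A1 were called higher in the cartilage, sclerotome, fibroblast and tendon gates alike.

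In the cartilage gate the collagens of the cartilage fibril were raised together. COL2A1 was at 1851, 1654, 2782 and 4874 CPM at E21 and E28. COL9A1 was at 536, 513, 1768 and 2411, and COL11A1 at 370, 402, 1169 and 1804. In all 3 genes the E28 libraries lay above those of E21, and the cartilage values lay above those of every library in the other 5 gates. In total 11 collagen genes were higher and 1 lower, against 11.6% of all genes called (6.79% higher, 4.84% lower). The log2 differences were 6.02 ± 0.27 for COL11A2, 5.19 ± 0.32 for COL9A3, 4.53 ± 0.38 for COL9A1, 4.38 ± 0.37 for COL2A1 and 3.82 ± 0.34 for COL11A1, with adjusted p between 2.45e-16 and 1.19e-09.

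COL27A1 (2.75), COL16A1 (2.29), COL15A1 (1.96), COL14A1 (1.95), COL6A3 (0.94) and COL26A1 (0.68) were also higher, and COL21A1 was lower. Of these, COL6A3 lost its call without E21-ZZ, COL21A1 without E28-ZZ, and COL6A3, COL15A1 and COL26A1 without either E28 library. COL15A1, COL6A3 and COL26A1 were not highest in cartilage. In late libraries COL15A1 averaged 56.1 CPM in cartilage and 894 in the endothelial gate. COL6A3 averaged 50.4 in cartilage, 106 in the fibroblast and 90.6 in the tendon gate, and COL26A1 70.7, 123 and 109. COL1A1 rose within the gate from 72.2 and 58.8 CPM at E21 to 395 and 651 at E28 (2.94 ± 0.26, adjusted p = 2.99e-08). In that comparison within cartilage, which like those within the other gates from E21 to E28 had 1 residual degree of freedom, 16 of 25 collagen genes rose and COL18A1 fell, against 7.05% of all genes called (4.44% higher, 2.6% lower). DESeq2 called 10 in place of 17, and the fall of COL18A1 was lost there, with no doublets removed and with a mitochondrial limit of 5%. Some of the gate's own markers also shifted, with HAPLN1 at 44.9 and 30.6 CPM at E21 and 281 and 485 at E28. EPYC was at 4.73 and 3.06 and then 236 and 391. Others moved less, with SOX9 at 387 and 335 and then 467 and 419, and MATN4 at 2416 and 1959 and then 2918 and 3664. The part of these shifts was not tested. Fibroblast markers were at 658 to 2592 CPM in the cartilage gate, and their part in the COL1A1 rise was not tested.

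**Figure D3:**
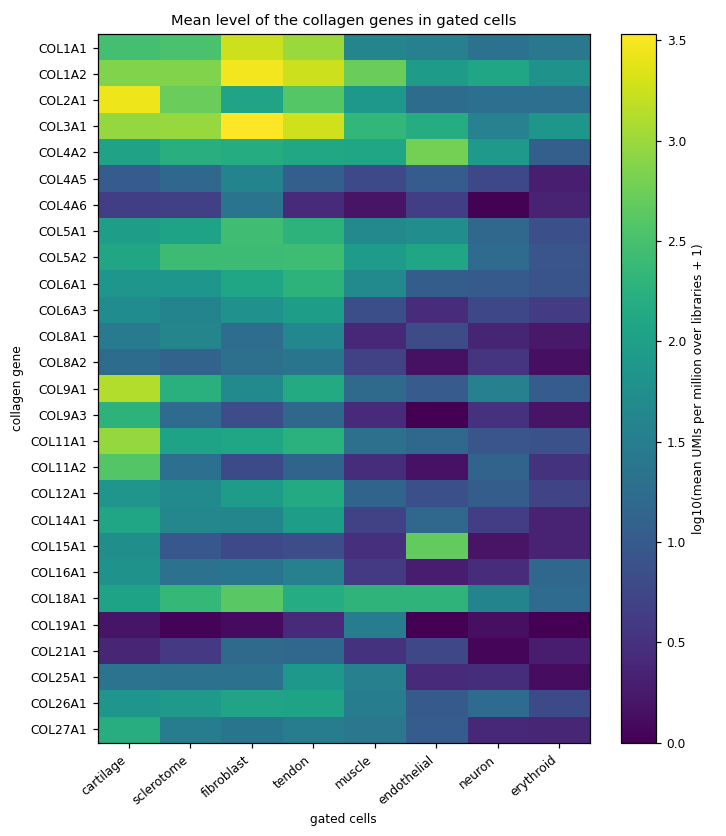
Mean level of 27 collagen genes in each gated cell type, as log10 of the mean CPM plus 1 over the libraries with at least 20 cells (colour scale). Cartilage is brightest for COL2A1, COL9A1, COL9A3, COL11A1 and COL11A2, muscle for COL19A1, and endothelium for COL15A1 and COL4A2.

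Sclerotome-gated cells carried several genes of the same set at lower levels, and the cartilage marker list was at 77.3 to 1421 CPM in this gate (median 426), whose part was not tested. COL2A1 was at 323, 418, 396, 416, 787, 902, 522 and 467 CPM, with a peak at E21. COL9A1 was at 82.9 to 309 and COL11A2 at 5.38 to 30.4. Against the other types 9 collagen genes were higher and 0 lower (14.5% of all genes called, 6.53% higher, 7.92% lower), among them COL9A3 (2.09), COL2A1 (1.73), COL8A1 (1.68), COL11A2 (1.58) and COL9A1 (1.47). COL6A3, COL13A1, COL16A1 and COL26A1 were the other 4. COL8A1 lost its call without E28-DZ, and COL13A1 without E21-DZ or either E28 library. With 1 more marker required per cell the count was 3.

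Within the sclerotome gate, 14 of 25 collagen genes rose from early to late libraries and 2 fell, against 19.2% of all genes called (10.1% higher, 9.08% lower). COL1A1 was at 30.4, 55.5, 82.4, 74.1, 150, 137, 943 and 1172 CPM (3.12 ± 0.61, adjusted p = 0.00351). COL12A1 was at 6.72 to 12.1 in early and 31.2 to 163 in late libraries (3.32 ± 0.56, adjusted p = 0.00143). COL5A2 fell by 1.14 and COL18A1 by 1.51 (adjusted p = 0.00457 and 0.000312). COL9A3 had 2 UMIs over the 4 early gates and 110 over the late ones, so no fold is given. COL2A1 lost its call without any 1 of the E16, E18 or E21 libraries, and COL11A2 without either E18 library. From E21 to E28, COL25A1 and COL2A1 fell while 11 of 26 genes rose (4.31% of all genes called, 2.95% higher, 1.35% lower). DESeq2 called 8 collagen genes in place of 13, and both falls were among the calls lost, with COL5A2, COL6A3 and COL9A3. Fibroblast markers ranged from 439 to 3079 CPM in this gate.

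In the early libraries, which had too few cartilage- and tendon-gated cells to be compared, type I and III collagen RNA was most abundant in the fibroblast gate, whereas COL1A1 was higher in the tendon than in the fibroblast gate in each of the 4 late libraries. COL1A1 was at 2006, 2069, 2917, 4757, 316, 354, 1057 and 1239 CPM. COL1A2 was at 3175, 2962, 4142, 6089, 1051, 1103, 2323 and 2646. COL3A1 was at 3932, 3397, 5445, 6189, 1842, 1907, 2062 and 2291. Every early library lay above every late library for all 3 genes, and E18-DZ was the highest. Against the other types 15 collagen genes were higher and 2 lower (17.5% of all genes called, 13% higher, 4.46% lower). The leading ones were COL1A1 (4.11 ± 0.50), COL1A2 (3.23 ± 0.40), COL3A1 (2.63 ± 0.31), COL21A1 (2.58 ± 0.35), COL4A6 (2.31 ± 0.34) and COL12A1 (2.16 ± 0.28), with adjusted p from 3.26e-07 to 9.76e-06. The 2 that were lower, COL2A1 and COL15A1, lost their calls without any 1 of 5 libraries each, and COL5A2, which was higher, without either E18 library or E28-ZZ.

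Within the fibroblast gate, the type I and III genes fell. From early to late libraries 12 of 28 collagen genes rose and 9 fell, against 36.7% of all genes called (18.3% higher, 18.4% lower). The genes that fell were COL4A6 (by 3.40), COL4A5 (2.64), COL18A1 (2.45), COL1A1 (2.35 ± 0.44, adjusted p = 0.00231), COL5A1 (1.67), COL3A1 (1.60), COL1A2 (1.58), COL11A1 (0.86) and COL5A2 (0.79), of which COL5A2 lost its call without either E18 library and COL11A1 without any 1 of 6 libraries (E16-ZZ and E28-ZZ excepted). Among those that rose, COL16A1 lost its call without E16-ZZ, COL6A1 without E16-DZ, E18-ZZ or E28-ZZ, COL15A1 without any 1 of the E16, E18 or E21 libraries, and COL5A3 without any 1 of the E16 or E18 libraries or E28-ZZ. COL4A6 was at 29.5 to 48.3 CPM in early and 4.34 to 4.89 in late gates. COL18A1 went from 537 to 857 to 135 to 201.

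Among the genes that rose in fibroblast-gated cells were cartilage and filament chains. COL2A1 was at 24.3, 11.7, 31.9, 25.4, 201, 150, 245 and 217 CPM (2.70 ± 0.19, adjusted p = 7.65e-06). COL6A3 was at 6.07, 10.0, 20.1, 14.5, 88.3, 94.4, 127 and 114 (2.70 ± 0.28, adjusted p = 6.51e-05), and COL9A1 went from 1.67 to 14.8 to 43.3 to 121 (3.04). COL21A1 had 2 UMIs over the early gates and 1336 over the late ones, and COL25A1 9 and 893. The cells that met the gate were not alike at the 2 ends. OGN (osteoglycin) was at 6.66 to 13.8 CPM in the early and 172 to 1743 in the late gates, DPT was at 9.29 or less in all 8, and LUM and DCN were present at 621 or more throughout. Other markers of the gate fell, with POSTN at 900 to 1307 in the early and 294 to 780.5 in the late gates. FBLN1 was at 888 to 1313 and then 515 to 588. DCN was at 756 to 2020 and then 621 to 826, with overlap, and LUM also overlapped between the periods. Cartilage markers were at 32.1 to 349 CPM in this gate (median 92.3) and neuron markers at 4.05 to 1088 (median 147). The part of all these markers in the collagen changes was not tested.

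**Figure D4:**
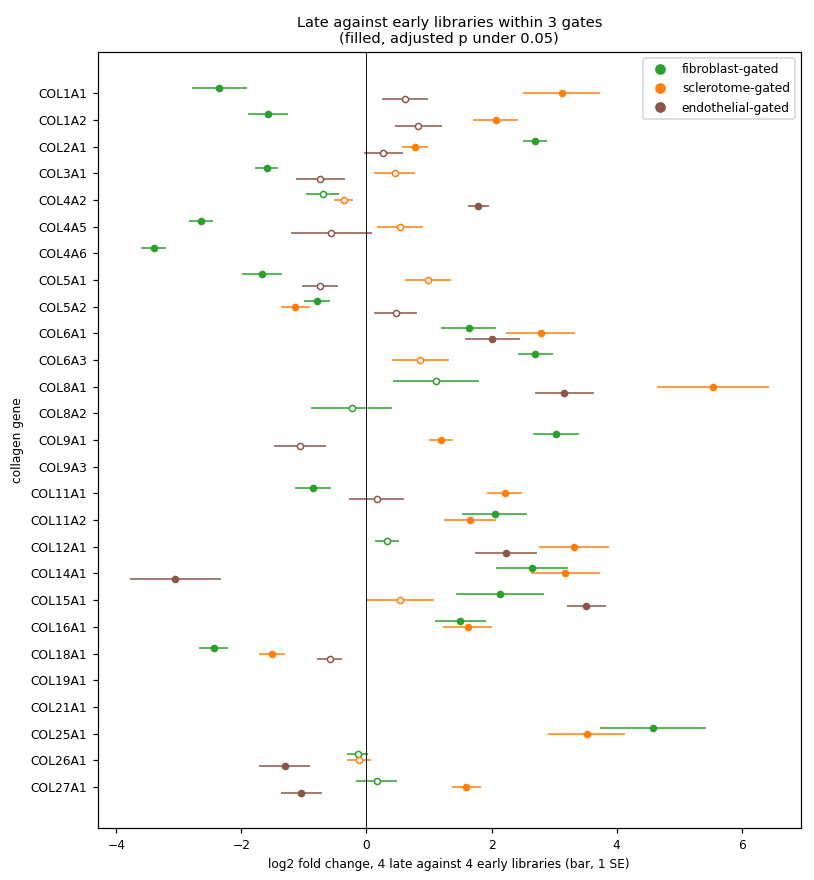
Late minus early log2 difference of collagen genes in the fibroblast, sclerotome and endothelial gates (points with 1 standard error, filled where the adjusted p was under 0.05, and none drawn where either period had 3 UMIs or fewer). COL1A1 and COL1A2 fall in fibroblast-gated and rise in sclerotome-gated cells, and COL15A1 and COL4A2 rise in endothelial-gated cells.

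The late-to-early change was compared between gates as a difference of differences. Between the fibroblast and sclerotome gates it differed for 18 of 28 collagen genes, against 27.8% of all genes. It was 5.25 ± 0.26 lower in fibroblast-gated cells for COL1A1 and 3.56 ± 0.14 lower for COL1A2 (adjusted p = 7.13e-12 and 2.42e-13), and 1.90 higher for COL2A1. The type I collagen genes thus fell in one gate and rose in the other over the same libraries, while no change passed the test in whole libraries.

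From E21 to E28 alone, when the tissue also changed from somite to myotome, 7 of 33 collagen genes rose in the fibroblast gate and COL25A1 fell (2.62% of all genes called, 2.07% higher, 0.549% lower). COL1A1 rose by 1.68 ± 0.22 (adjusted p = 0.0218), COL8A2 by 2.89 ± 0.34 (adjusted p = 0.0184) and COL6A1 by 1.58 ± 0.18 (adjusted p = 0.0165).

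In the tendon gate 8 collagen genes were higher than in the other types and 1 lower, against 3.6% of all genes called (2.92% higher, 0.676% lower). COL12A1 was at 109, 157, 137 and 165 CPM at E21 and E28 (1.79 ± 0.34, adjusted p = 0.00181). COL6A1 was at 117, 68.1, 275 and 293 (1.33 ± 0.24, adjusted p = 0.00101). COL1A1 was at 408, 856, 1313 and 1345 (2.28 ± 0.55, adjusted p = 0.0133). COL3A1, COL5A1, COL6A3, COL16A1 and COL26A1 were the other genes that were higher, and COL15A1 was lower. COL1A1 and COL5A1 lost their call without any 1 of the 4 late libraries and COL3A1 without any but E21-ZZ, and the count was 4 without E28-ZZ and 5 without E28-DZ. Fibroblast markers were at 1165 to 4560 CPM in this gate, and their part was not tested.

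Between E21 and E28 COL25A1 fell within the tendon gate from 109 and 139 to 34.3 and 16.0 CPM (by 2.51 ± 0.28, adjusted p = 2.69e-15). In that comparison 9 of 26 collagen genes rose and 4 fell, against 4.02% of all genes (2.46% higher, 1.56% lower). COL8A2 rose by 3.35 and COL6A1 by 1.56, while COL2A1, COL5A2 and COL9A1 fell by 0.96, 0.84 and 0.90. DESeq2 called 2 collagen genes in place of 13.

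Muscle-gated cells were poor in collagen RNA, with 3 genes higher and 19 lower than in the other types, while 42.6% of all genes were called (21.8% higher, 20.8% lower). The 3 genes were COL19A1, COL22A1 and COL25A1. COL19A1 was at 28.3, 21.7, 32.4, 30.0, 29.3 and 35.8 CPM from E18 to E28 (adjusted p = 2.44e-16), and at most 2.79 in any library of the other 5 gates. Both E18 values lay below the 4 later ones in this gate. From E21 to E28 its log2 difference in the gate was −0.08 (adjusted p = 0.9), and the muscle gate grew from 69 and 120 cells at E18 to 851 and 1706 at E28.

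COL22A1 was at 0, 7.73, 32.8, 21.3, 8.56 and 14.8 CPM in the same order (adjusted p = 6.88e-14), with at most 1.86 in any library of the other 5 gates. It fell by 1.33 ± 0.31 from E21 to E28 (adjusted p = 0.0402). COL25A1 was at 1.77, 15.5, 59.7, 56.9, 37.1 and 28.2 (1.16 ± 0.36 against the other types, adjusted p = 0.00976), with its peak at E21. Unlike COL19A1 and COL22A1, it reached higher values in other gates, up to 139 CPM in the tendon, 71.8 in the fibroblast and 66.5 in the sclerotome gate. COL23A1 was at 35.4 and 40.2 at E18 and at 2.10 to 6.72 later, on 107 UMIs. The call of COL25A1 was lost without E28-DZ, with cells above 5% mitochondrial UMIs removed, and in DESeq2.

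The type I chains separated in muscle cells. The cells that met this gate were not alike at all stages, as MYOD1 was at 7.08 and 3.09 CPM at E18 (4 and 2 UMIs) and at 193 to 476 later, MYOG at 46.0 and 37.1 and then 113 to 173, and MYL1 at 336 and 363 and then 787 to 1297. Other markers of the gate went the other way or stayed level. KLHL41 was at 711 and 815 at E18 and 266 and 309 at E28, and MYMK at 957 and 1011 and then 678 and 758. CDH15 was at 461 to 582 throughout. The part of these shifts in the collagen levels from E18 on was not tested. COL1A1 was at 21.2, 17.0, 24.04, 19.4, 86.8 and 70.1 CPM from E18-ZZ to E28-DZ. COL1A2 was at 97.3, 104, 398, 443, 971 and 1199. COL1A1 was 3.02 ± 0.63 lower than in the other types (adjusted p = 0.000261), while the difference of COL1A2 was −0.60 ± 0.42 (adjusted p = 0.261). The 2 genes differ in their 3′ ends and UMI counts are not scaled to gene length, so their ratio is read here only between samples. The ratio of COL1A2 to COL1A1 UMIs in the muscle gate was 4.58 and 6.09 for the E18 libraries, then 16.6 and 22.9 in E21 and stood at 11.2 and 17.1 in E28. It was 1.28 to 3.33 in the fibroblast, 1.76 to 2.20 in the tendon, 1.49 to 4.26 in the endothelial, 1.63 to 6.36 in the sclerotome and 1.70 to 6.77 in the cartilage gate. From E21 on the ratio in muscle lay above that of every library in the other 5 gates. In the erythroid gate it was 1.47 to 5.25, and in the neuron gate 2.19 to 19.4, where the highest value came from 97 COL1A2 and 5 COL1A1 UMIs in E18-DZ.

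**Figure D5:**
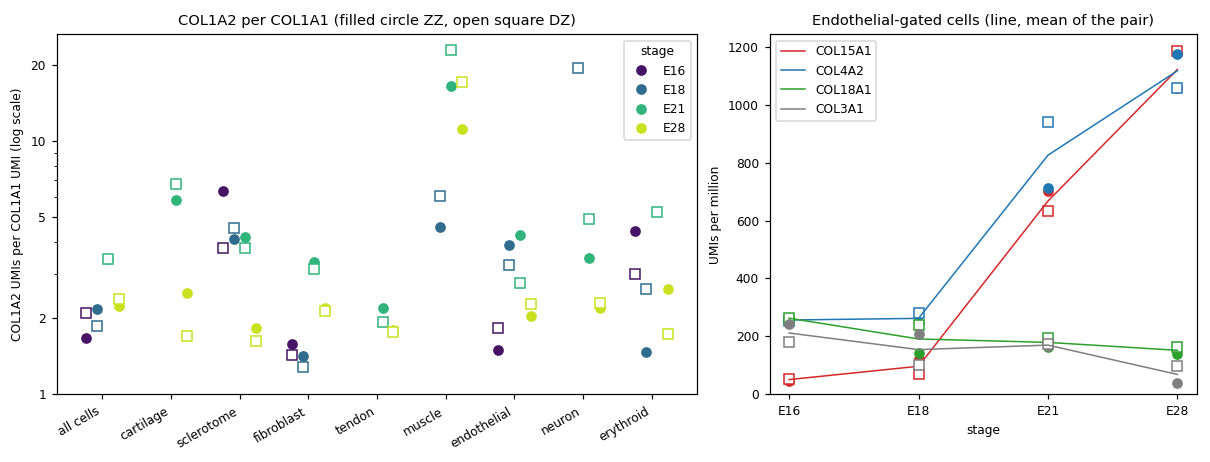
Left, the ratio of COL1A2 to COL1A1 UMIs (log axis) by gate, with 1 point per library, filled circles ZZ, open squares DZ and colours the stages, where muscle reaches 22.9 and 1 neuron library 19.4. Right, the level of COL15A1, COL4A2, COL18A1 and COL3A1 (CPM) by stage in the endothelial gate, with lines through the mean of both breeds, where COL15A1 and COL4A2 are higher in all 4 late libraries.

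At E28, COL1A2 UMIs were found in most muscle-gated cells, whereas at E18 42.03% and 35.8% of these cells had one. In E28-DZ, 95.4% of 1706 muscle-gated cells had at least 1 COL1A2 UMI (exact binomial 95% interval 94.3% to 96.4%), and no cell held more than 54 of the 10847 COL1A2 UMIs. For COL1A1 the share was 19.3% (17.4% to 21.2%). In E28-ZZ the shares were 89.2% and 25.9% of 851 cells. Neurons and erythroid cells of E28-DZ gave 17.3% and 23.5% for COL1A2 and 9.50% and 11.8% for COL1A1, at median depths of 4723 and 6028 UMIs against 4672 in muscle.

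After each cell was thinned to 2000 UMIs, 82.6% of muscle, 7.91% of neuron and 12.2% of erythroid cells of E28-DZ kept a COL1A2 UMI, with 30, 2 and 2 shallower cells left out. In E28-ZZ the contrast was smaller, at 70.4% of muscle, 18.4% of neuron and 15.8% of erythroid cells (38 cells in each of the last 2). For COL1A1 the shares in muscle, neurons and erythroid cells were 10.6%, 3.95% and 4.08% in E28-DZ and 12.4%, 2.63% and 5.26% in E28-ZZ. In the fibroblast gate of E28-DZ 93.4% kept COL1A2 and 86.0% COL1A1. At E21, 49.4% and 50.7% of muscle cells kept COL1A2 against 2.85% and 4.39% of neurons and 2.70% and 4.00% of erythroid cells. For COL1A1 the shares at E21 were 3.74% and 4.61% in muscle and 0.814% and 1.58% in neurons (1474 and 570 cells). In erythroid cells they were 5.41% and 0% (37 and 50 cells). At E18, 16.2% and 18.7% of muscle cells kept COL1A2 against 19.1% and 25.3% of neurons and 3.02% and 5.19% of erythroid cells, so the muscle share lay above one reference and below the other. The intervals cover counting error only. Within muscle both chains rose from E21 to E28, COL1A2 by 1.23 ± 0.21 (adjusted p = 0.0109) and COL1A1 by 1.72 ± 0.20 (adjusted p = 0.00177). The fibroblast marker list was at 178 to 908 CPM in muscle cells, against 3342 to 5491 in the fibroblast gate.

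Other collagens of muscle cells changed from E21 to E28 as well. COL6A1 rose by 2.06 ± 0.22 (adjusted p = 0.00084), from 24.5 and 19.4 to 124 and 79.8 CPM and COL21A1 passed the test with levels of 0.462 and 0 at E21 and 9.76 and 3.54 at E28. COL2A1, COL4A2, COL5A2, COL22A1 and COL25A1 fell, so that 4 of 25 collagen genes rose and 5 fell (3.99% of all genes called, 1.11% higher, 2.88% lower). COL4A2 had 248 and 234 CPM in the E18 libraries, then 80.5 and 78.7, and lastly 56.0 and 29.4, over the same stages as the shift in MYOD1. DESeq2 called 5 collagen genes in place of 9, without COL4A2, COL21A1, COL22A1 and COL25A1.

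Endothelial-gated cells were set apart by 2 basement membrane collagens, COL15A1 at all stages and COL4A2 in the late ones. COL15A1 was at 47.3, 54.7, 122, 71.6, 703, 631, 1058 and 1185 CPM. COL4A2 was at 259, 254, 246, 279, 712, 939, 1176 and 1058. All late libraries lay above all early ones, and against the other types COL15A1 was 6.46 ± 0.31 and COL4A2 2.28 ± 0.27 higher (adjusted p = 2.03e-17 and 2.39e-08). COL4A1, matched by identifier and not counted here, was 3.31 ± 0.28 higher (adjusted p = 1.78e-11), and it was lower in the cartilage (−1.49, adjusted p = 0.0406) and muscle gates (−0.999, adjusted p = 0.0409), where COL4A2 gave −0.70 in each (adjusted p = 0.328 and 0.139). COL17A1 was the third gene that was higher (1.07, adjusted p = 0.00974), on 53 UMIs. In late libraries it averaged 3.37 CPM in this gate, 3.40 in the tendon and 3.45 in the sclerotome gate. COL4A2 overlapped other gates in early libraries, at 126 to 268 CPM in the fibroblast gate and 234 and 248 in the muscle gate of E18. In all, 3 collagen genes were higher and 19 lower, while 51% of all genes were called (25.6% higher, 25.4% lower). All 9 fibrillar genes tested were lower, with COL1A1 at 14.6 to 83.7 and COL2A1 at 9.67 to 26.6, but the call of COL5A2 was kept in only 7 of 15 alternatives and was lost without any 1 of the E16 or E18 libraries or E21-ZZ. COL9A3 had 0 UMIs in this gate in all 8 libraries.

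From early to late libraries 5 of 19 collagen genes rose and 4 fell in the endothelial gate, against 25.8% of all genes called (13.6% higher, 12.2% lower). COL15A1 rose by 3.52 ± 0.31 (adjusted p = 9.66e-05) and COL4A2 by 1.79 ± 0.17 (adjusted p = 0.000179). Some of the gate's own markers also shifted, with CLDN5 at 276 to 435 CPM in early and 1139 to 2483 in late gates. PECAM1, CDH5, ESAM, TIE1 and PLVAP were also higher in every late than in every early gate, with PECAM1 at 426 to 565 and then 705 to 1215. TEK was at 201 to 314 and then 99.9 to 210, and TEK, KDR, EGFL7 and EMCN overlapped between the periods. The part of these shifts was not tested. COL4A1 went from 258.5 to 356.5 CPM in early to 816 to 1340 in late gates (1.77 ± 0.18, adjusted p = 0.000212). It fell by 1.46 in the fibroblast and by 0.76 in the sclerotome gate (adjusted p = 0.000709 and 0.00482), where COL4A2 gave −0.70 and −0.36 (adjusted p = 0.0576 and 0.103). COL8A1, COL6A1 and COL12A1 rose by 3.17, 2.01 and 2.23 on 44, 106 and 62 UMIs, and COL13A1, COL14A1, COL26A1 and COL27A1 fell, of which COL26A1 lost its call without any 1 of 5 libraries and COL27A1 without any but E18-ZZ, and COL12A1 lost its call without E21-DZ.

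COL14A1 was at 6.09, 21.4, 41.8 and 33.3 in the early and at 4.39, 5.70, 1.39 and 1.39 CPM in the late gates (−3.06 ± 0.73, adjusted p = 0.0117). The late-to-early change of COL4A2 was 2.13 ± 0.17 higher in endothelial than in sclerotome-gated cells (adjusted p = 9.17e-07) and that of COL15A1 2.56 ± 0.50 higher (adjusted p = 0.00313), among 11 of 27 collagen genes called in this comparison, against 7.33% of all genes. COL4A2 stayed level in whole libraries while it rose in the endothelial gate, which shrank from 403 and 893 cells at E16 to 66 and 64 at E28. The count of 9 calls was 5 without E16-ZZ, 4 without E16-DZ, 14 with no doublets removed and 19 with no filter on low counts. From E21 to E28 only COL3A1 passed the test in these cells, with a fall of 1.38 (1 of 11, and 1.51% of all genes called, 0.742% higher, 0.77% lower), a call lost in DESeq2 and with no doublets removed.

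The genes that make and handle collagen were counted as a fixed list of 47 found genes. In whole libraries 5 of 44 tested rose and 3 fell from early to late, against the 34.4% of all genes given above. P4HA3, a subunit of the prolyl hydroxylase that stabilizes the collagen helix, was at 4.07, 2.26, 0.921, 0.833, 13.4, 11.5, 50.2 and 80.6 CPM (4.04 ± 0.88, adjusted p = 0.0114). COLGALT2, which adds galactose to collagen, rose by 3.13 (adjusted p = 0.00339) and LOXL4, a crosslinking oxidase, by 2.11 (adjusted p = 0.00498). P4HA2, another hydroxylase subunit, fell by 0.94, P3H1, a prolyl 3-hydroxylase, by 0.81 and PLOD2, a lysyl hydroxylase, by 0.76 (adjusted p = 0.00493, 0.00939 and 0.0386). P4HA2 and P4HA3, alternative subunits of one enzyme, thus moved in opposite directions.

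In the fibroblast gate 26 of 40 tested genes of this list fell from early to late and 3 rose, against 36.7% of all genes. Of the 17 genes of synthesis and folding 13 fell, including PLOD2 (by 2.78), P4HA2 (2.70), P3H1 (2.47) and SERPINH1, the collagen chaperone (1.36 ± 0.23, adjusted p = 0.0013). P4HA3 rose by 3.13 (adjusted p = 0.0158). The median log2 difference of the 17 genes was −1.20, against 0.03 for all genes in this gate. From E21 to E28 the list went the other way, with 5 of 41 genes higher and 0 lower in the fibroblast gate (2.62% of all genes called) and 15 of 44 higher and 0 lower in whole libraries (8.53% of all genes called). In the sclerotome gate, late against early, 5 of 18 genes of synthesis and folding rose and 2 fell, against 19.2% of all genes called (10.1% higher, 9.08% lower).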

How the data were processed

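Single-cell 3′ RNA libraries (version 3 reagents) of 8 pools of 5 embryos were used. The deposited matrices hold raw UMI counts per gene and cell barcode, which the authors made with Cell Ranger 3.1.0 (E16) or 3.0.2 (other stages) against Sscrofa11.1 with Ensembl 98 annotation. No replicates were pooled. The members and gene lists used here were chosen with earlier results of these data known, and the gate limits were set after the marker distributions, but not the collagen values, had been seen.

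From the deposited counts, barcodes were kept at 200 genes or more, up to 30000 UMIs and up to 10% of UMIs on 13 mitochondrial genes, and the highest Scrublet scores (scanpy 1.11.5) at 0.8% per 1000 barcodes were removed as doublets. Of 90688 barcodes 82394 met the limits, and 8247 doublets were then taken out. Cells were gated on markers (at least 2 or 3 per cell), and counts were summed per library, or per library and gate with at least 20 cells. Sums were tested with edgeR 4.0.16 (R 4.3.3) by the quasi-likelihood test with TMM scaling and filterByExpr, and p-values were adjusted by Benjamini-Hochberg over all genes at a threshold of 0.05. Breed was a covariate for stages, stage for breeds and library for gates. The collagens given in full were the 27 that reached 20 CPM in a whole library or as the mean of 1 of the 6 gated types, and the other 12 are given by counts or calls, where the levels of COL22A1, COL23A1 and COL5A3 were added after their values were seen. Of the 47 genes that make or handle collagen, the 3 most changed in each direction in whole libraries were named, and SERPINH1 was added after its values were seen. Shares of cells have exact binomial 95% intervals, which cover counting error only, as do all floors. DESeq2 1.42.0, other filters, limits and gates, and leaving out libraries were the alternatives. On simulated counts for late against early whole libraries (14682 genes), 60% of genes changed by 1 on the log2 scale and 97% of those changed by 2 were recovered. Of the calls 4.8% were false. For E28 against E21 whole libraries 89% and 100% were recovered, but 10% of the calls were false at the threshold of 0.05. The changed genes were drawn from the more highly expressed ones, so recovery of low-count collagens was not tested. Each library is a pool of embryos of 1 sow and no stage and breed had another pool, so the spread between like pools was not estimated. For late against early, the spread behind the p-values includes differences between the stages of a period. For adjacent stages and breeds, it is how far the libraries depart from added effects of stage and breed. For types, it is how the difference between types varies over libraries.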

Additional observations from a re-analysis of the deposited data

Results flagged for a closer look

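Of 54 groups of 4 libraries examined for a library far from the others, 2 had one, where chance gives about 1 in 20. COL3A1 in the early libraries was at 376.2 CPM in E16-DZ, against 812 to 887 in the other 3, and the fibroblast gate of E16-DZ held 116 cells against 193 to 349. COL21A1 in the late libraries was at 43.38 in E28-ZZ, against 3.77 to 9.29 in the other 3, and in the fibroblast gate it was at 67.0 in E28-ZZ against 15.93 to 23.96 in the other late libraries.

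The change from early to late libraries differed between gates for the following genes by an interaction test. In fibroblast-gated less sclerotome-gated cells the difference of the log2 changes was negative for COL8A2 (−6.87), COL1A1 (−5.25), COL8A1 (−4.70), COL9A3 (−3.86), COL4A6 (−3.77), COL1A2 (−3.56), COL11A1 (−3.22), COL4A5 (−3.16), COL12A1 (−3.03), COL5A1 (−2.68), COL3A1 (−2.11), COL27A1 (−1.61), COL6A1 (−1.01) and COL18A1 (−0.86). It was positive for COL2A1 (1.90), COL15A1 (1.79), COL6A3 (1.70) and COL9A1 (1.69). Early sclerotome sums held 1 UMI of COL8A2, 2 of COL9A3 and 6 of COL8A1, so the sizes for these 3 genes depend on the prior count of the fit.

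In endothelial-gated less sclerotome-gated cells the difference was positive for COL15A1 (2.56), COL4A2 (2.13), COL5A2 (1.66) and COL18A1 (1.00). It was negative for COL14A1 (−6.60), COL25A1 (−3.53), COL27A1 (−2.55), COL13A1 (−2.40), COL9A1 (−2.33), COL11A1 (−2.25) and COL5A1 (−1.43). COL14A1 rose in the sclerotome gate and fell in the endothelial gate. In these cells the number of gated cells moved with the stage, and its part in the differences was not tested.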

How the results depend on the processing

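No call reversed its direction under any alternative run. Over all comparisons and settings, 2812 of 3168 repeated calls of collagen genes were kept and 356 were lost, the causes of which were not tested. Between E16 and E18 the 5 calls became 13 with DESeq2, 1 with a mitochondrial limit of 5%, 9 with library totals in place of TMM and 0 to 7 with a library left out. Between E18 and E21 the 19 calls became 9 with the limit of 5% and 4 to 20 with a library left out, and between E21 and E28 the 14 calls became 1 to 15. Within gates from E21 to E28, DESeq2 called 10 genes in cartilage, 0 in endothelial, 5 in muscle, 8 in sclerotome and 2 in tendon cells, and without a filter on low counts 4 passed in endothelial and 15 in fibroblast cells. Late against early gave 14 calls without both E28 libraries, 4 without both E16 libraries (fewer samples in each) and 18 to 26 with 1 library left out. In the endothelial gate late against early gave 19 calls with no filter, 14 with no doublets removed and 4 to 10 with a library left out. The sclerotome gate gave 3 calls with 1 more marker.

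With 1 library left out the counts against other types were 8 to 13 in cartilage, 7 to 10 in sclerotome, 14 to 19 in fibroblast, 4 to 10 in tendon, 21 to 24 in muscle and 20 to 23 in endothelial cells, those of late against early 17 to 21 in fibroblast and 14 to 17 in sclerotome cells, and that of the breeds 0 in every case. The difference in collagen share was then 0.144 to 0.271 percentage points. Library totals, tried after the data had been seen, moved the median of all genes to 0.41 in the late against early fibroblast, 0.21 in the whole-library and −0.18 in the muscle comparison. The limit of 5% could not be run within the endothelial gate, and 1 more marker not within the sclerotome and tendon gates from E21 to E28. Leaving out a library there leaves no residual degree of freedom. Breeds were compared within stages and gates within libraries. By replicate number, no paired analysis was possible because each stage and breed had 1 library and the number 1 is shared by all. Low counts limit COL10A1, COL4A3, COL6A5 and the rarer genes of small gates.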

Other observations

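COL5A3, a minor type V chain, was highest in neurons among the gated types. It was at 21.7 to 51.0 CPM in the 6 neuron libraries (mean 38.7 ± 11.8 SD), and at most 6.41 in any library of the other 7 gates. The neuron gate was built on markers of differentiating neurons and was not among the types compared above, so this difference was not tested.

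COL4A3 and COL4A4, whose starts lie together on opposite strands of chromosome 15, had few UMIs in any gate, and outside the endothelial gate of E21-DZ (51 cells) reached at most 8.845 CPM for COL4A4 and 3.54 for COL4A3, both in the muscle gate of E18-ZZ. In that endothelial gate all 9 COL4A3 UMIs came from 1 cell, as did all 27 COL4A4 UMIs, and 13 of the 16 COL4A5 UMIs also lay in 1 cell. Whether these were the same cell was not examined.

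COL16A1 was at 2.85 to 27.3 CPM in the erythroid gate, above its range of 0 to 2.78 in the endothelial and 0 to 3.09 in the neuron gate in most libraries, and this was not tested.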
